A study of Mus musculus with 24 samples.

Results

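The gene table of these blood monocyte libraries named 23090 of its 53715 genes after the genomic clone on which they were first annotated, by names that start with RP23- or RP24-. Of these clone-named genes, 13073 were listed at 0 in all 24 libraries. The 866 described here were chosen by their values: 4 or more of the 24 libraries had to reach a normalised value of 50. Their presence in monocytes is therefore a description, not a result. They were 8.27% of the 10477 genes that passed the same requirement, and 3.75% of the clone-named genes passed it against 31.4% of all other genes. Just inside the limit lay RP23-114L12.6 (Gm37470) and RP23-177C20.5 (Gm13436), where the library that ranks 4 from the top had 50, and just outside it RP23-12N20.1 (Gm11696) and RP23-162E7.4 (Gm48766), where it had 49.

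Ly6Chi monocytes, the classical inflammatory subset, and Ly6Clo monocytes, the patrolling subset, were sorted from peripheral blood (PB) of C57BL/6 mice aged 8 to 10 weeks. N2ΔMy mice carried Lyz2Cre with a floxed Notch2 gene, wt mice were littermate controls, and both genotypes carried a Cx3cr1 GFP allele that was used in the sort. Lyz2Cre acts in myeloid cells and not in monocytes alone. Mice received 50 mg of Aldara cream with 5% imiquimod (IMQ, a TLR7 agonist) or Sham cream daily on the skin for 4 to 5 days and were analysed on day 5, and the labels call the controls Sham in some fields and untreated or naive in others. There were 6 groups of 4 libraries: Ly6Chi cells of wt and N2ΔMy mice after Sham, and Ly6Chi and Ly6Clo cells of both genotypes after IMQ. Every list of 4 values below gives replicates 1 to 4 in that order. The labels call the replicates biological and tie no library to an animal by number. In sorted bulk cells, fewer cells of a type and less RNA per cell cannot be told apart.

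The RP23 and RP24 prefixes stand for libraries of C57BL/6 mouse DNA cloned as bacterial artificial chromosomes, and an annotator's clone-based name says where a transcript was found rather than what it does. Long noncoding RNAs, pseudogenes, unprocessed intronic RNA and not yet named coding genes can all carry such a name. A transcript inside an intron on the strand of its host gene can come from the host's own pre-mRNA, whereas an antisense transcript needs a promoter on the opposite strand. The GENCODE class TEC, for loci that await an experiment, holds unspliced clusters of sequenced cDNA ends with signs of a poly(A) tail, whose transcript is not established.

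Many of the 866 were not unknown genes. A later GENCODE release, M21, matched 862 of them by gene identifier and classed 348 as TEC, 188 as protein coding, 90 as lincRNA, 64 as processed pseudogenes, 51 as sense intronic, 46 as processed transcripts and 45 as antisense. Coding members included Ifi206, an interferon-activated gene of the Aim2 family listed as RP23-85A8.1, and Tmem273, listed as RP24-456G16.4. A provisional symbol of Gm and digits was carried by 551. The members were low, and their median mean value over the 24 libraries was 77.6 against 435 for the other genes that passed the requirement, and per kilobase of exon the medians were 36.7 and 99.3.

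Most members overlapped another gene, and 44.2% lay wholly within an intron on the same strand. On the strand of a host gene were 443, of which 383 were wholly intronic, 48 shared exon bases with the host and 12 reached outside it. A further 145 overlapped genes on the opposite strand alone, 99 of them over exon bases, and 278 overlapped no other gene. The overlapping gene is called the host here, also where it is the smaller of the pair and the member spans it. Of the 348 TEC members, 83.3% were sense intronic, against 42.5% of the 2719 clone-named TEC genes that did not reach the limit. All 348 consisted of 1 exon block, as did 509 of the 866. Of the 278 members with no overlap, 37 began within 5 kb downstream of a tested gene on the same strand.

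**Figure D1:**
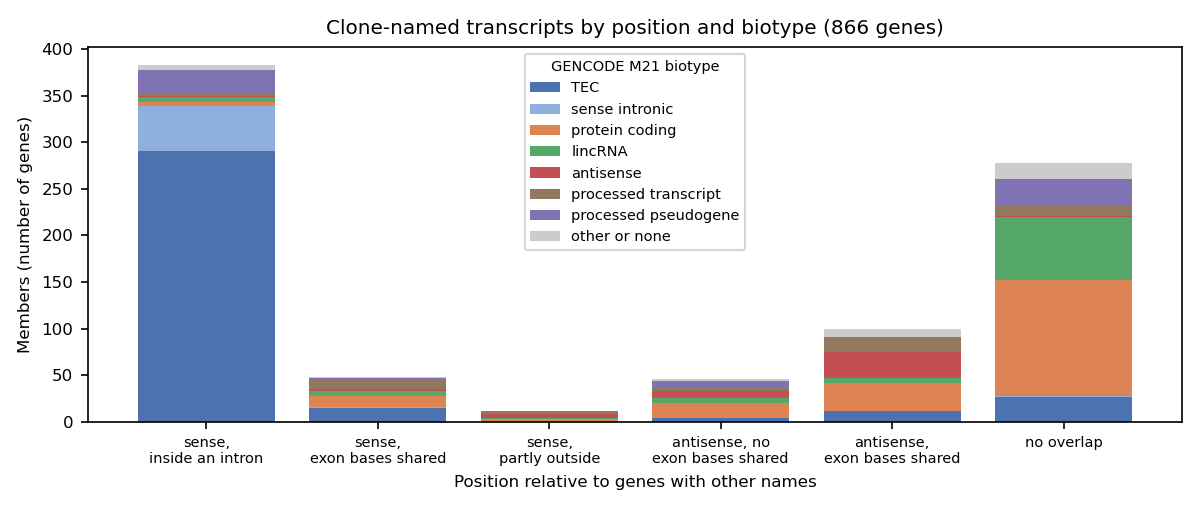
Number of members (vertical axis) at each position relative to other annotated genes (horizontal axis), with bar segments for the GENCODE M21 class. The sense intronic bar holds 383 members, mostly TEC, and the members that overlap no gene number 278.

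Reads of 75 bases cannot always be assigned between near-identical sequences. Of the 862 members with M21 transcripts, 493 shared no 75-base window with a transcript of another gene, 369 shared some and 48 shared over 50% of their windows. The library kit was stranded, but the strand setting of the counting is not given in the sources used here, so for the 99 antisense and 48 sense members that share exon bases with another gene, reads of the member and of its partner may not be separate.

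Library sums lay between 13273508 and 14651770 normalised counts. Notch2, the deleted gene, had values of 12656 to 20005 in the wt libraries and 7240 to 11518 in the N2ΔMy libraries, with no overlap. Its log2 difference was −0.72 in Ly6Clo cells, −0.87 in Ly6Chi cells after IMQ and −0.71 after Sham. Summed over 6 marker genes of Ly6Chi cells, group medians were 38731.5 to 65192.5 in the 4 Ly6Chi groups, 2869.5 in wt Ly6Clo cells and 12874 in N2ΔMy Ly6Clo cells, and summed over 8 marker genes of Ly6Clo cells, they were 25990.5 to 44170, 164350.5 and 98802.5. All 3 B cell, 3 T cell and 3 NK cell markers stayed under 50 in every library.

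The highest members were RNAs of the ribosomal RNA unit on chromosome 17. RP23-81C12.1 (Gm26917, chr17:39843013-39846341) had 375018, 303271, 230031 and 231352 in wt Ly6Chi Sham cells, 491764, 507919, 346025 and 400363 in wt Ly6Chi IMQ cells and 327134, 295946, 203460 and 206558 in wt Ly6Clo cells. Its replicates 1 and 2 stood above replicates 3 and 4 in every group, and in wt cells the Ly6Clo values lay below all 4 Ly6Chi values after IMQ. The neighbouring RP23-81C12.3 (Gm42418) showed the opposite order of replicates, with 237972, 143372, 349074 and 505517 in wt Ly6Chi Sham cells. It runs antisense to Rn18s-rs5 (chr17:39846353-39848827, minus strand) and shares exon bases with it, so reads of the member and of this gene may not be separate. Of its windows, 93.1% are shared with other genes, of which CT010467.1 holds the most. Together RP23-81C12.1 and RP23-81C12.3 took 2.96 to 6.54% of a library's sum. Replicates 1 and 2 belong to 1 series of library names and replicates 3 and 4 to another.

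RP23-465M17.1 (Gm8995, chr7:106504239-106511671) and RP23-465M17.2 (Gm1966, chr7:106596743-106604035), both pseudogenes, came next in mean value. Their nearest tested gene not named after a clone was Gvin1 (chr7:106156556-106215326), which encodes a very large interferon-inducible GTPase. RP23-465M17.1 fell after IMQ. In wt Ly6Chi cells it had 18144, 17746, 20592 and 19204 after Sham and 8745, 10349, 12646 and 7789 after IMQ, and in N2ΔMy Ly6Chi cells 18999, 19094, 16437 and 20815 after Sham and 8054, 9365, 11226 and 10242 after IMQ. Sham and IMQ values did not overlap in either genotype, and the log2 fold change was −0.96 in both (SE 0.14 and 0.12, Benjamini-Hochberg adjusted p = 0.00116 and 0.000652, limma). RP23-448H3.2 (Gm37194, chr14:50061360-50064390) ranged from 215 to 39579 without following the groups. It had 767, 18180, 2278 and 2085 in wt Ly6Chi Sham cells and 215, 25177, 8384 and 2656 in N2ΔMy Ly6Clo cells, so replicate 2 was the highest library of both groups. The next 5 by mean were coding genes: RP23-180L12.1 (5031439G07Rik), RP23-92G13.4 (BC005537), RP23-185A18.9 (2610507B11Rik), RP24-535N4.2 (D17Wsu92e) and RP23-411N10.2 (AB124611). RP23-185A18.9 had 3442, 4103, 3640 and 4056 in wt Ly6Chi IMQ, 5288, 5090, 4340 and 4476 in wt Ly6Clo and 7456, 7159, 5481 and 6044 in N2ΔMy Ly6Clo cells. The last group lay above every other library, and these 3 groups did not overlap.

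The summed level of intronic members varied more between libraries than that of the other classes. The summed value of the 383 sense intronic members ran from 17931 to 71197 over the 24 libraries, a range of 3.97-fold, while that of the antisense members with shared exon bases, 98 without RP23-81C12.3, ran from 16738 to 21055, a range of 1.26-fold. The 2038 clone-named sense intronic genes that did not reach the limit gave 3956 to 12101, a range of 3.06-fold, so the spread was not particular to the members chosen. By group, the sense intronic sum was 46316 ± 2066 (SD, n = 4 here and below) in wt and 35700 ± 8577 in N2ΔMy Ly6Chi Sham cells, 39944 ± 11438 and 28321 ± 9850 in Ly6Chi IMQ cells, and 59182 ± 9806 and 41115 ± 12521 in Ly6Clo cells. The nuclear RNAs Malat1 and Neat1, looked at after these sums were seen, ranged from 53987 to 239995 (4.45-fold) and from 4228 to 17369 (4.11-fold).

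**Figure D2:**
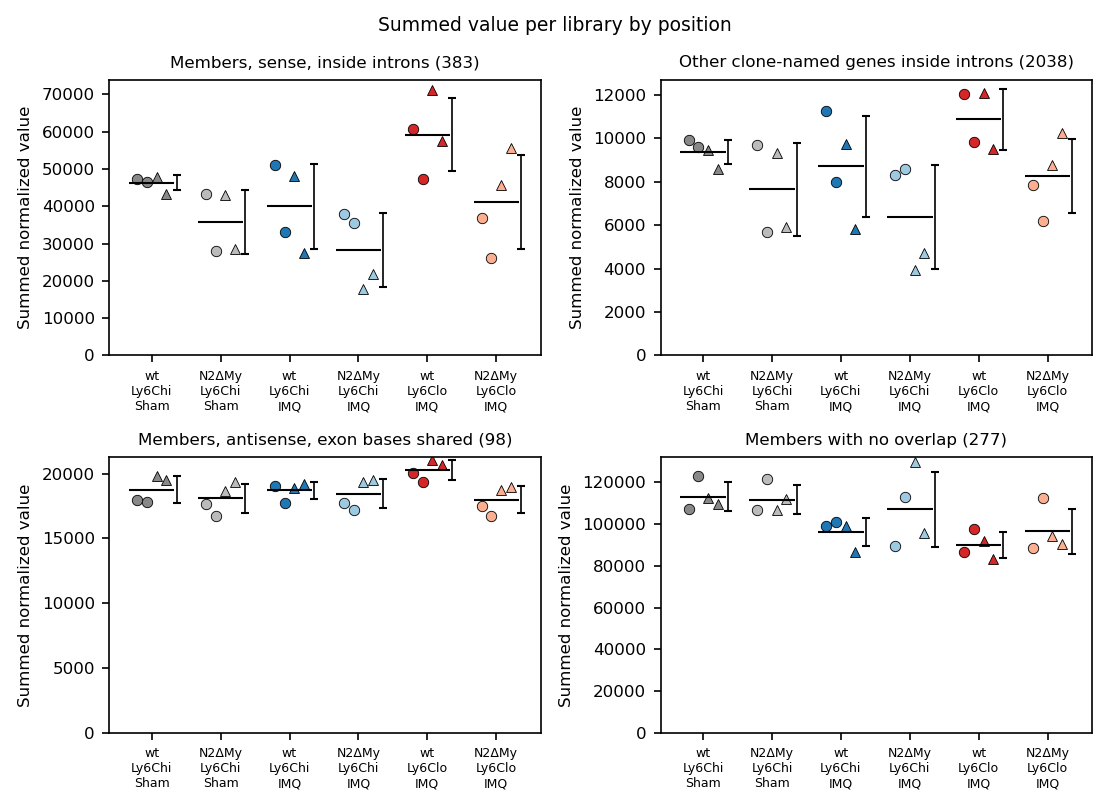
Summed normalised value (vertical axes) of sense intronic members, other clone-named sense intronic genes, antisense members with shared exon bases and members with no overlap in the 6 groups, the last 2 without the ribosomal RNA pair (horizontal axis), with circles for replicates 1 and 2, triangles for replicates 3 and 4, a line for the mean and a bar for the SD. The sense intronic sum spans 17931 to 71197 and the antisense sum 16738 to 21055.

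Over the 6 groups, 255 of the 866 members passed limma's moderated F-test (adjusted p up to 0.01), where 43.0% of all 11230 tested genes did. The 2 members that reached 50 in libraries of 1 group alone did so in wt Ly6Clo cells. In comparisons of 2 groups, a gene was called when its adjusted p did not exceed 0.05 and its log2 fold change reached 0.6 in either direction. All fold changes are of log2(value + 1), which understates the change of low genes. The comparisons share libraries, so their counts are given side by side and are not independent.

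The largest differences lay between the subsets. After IMQ, 155 members were higher and 73 lower in wt Ly6Clo than in wt Ly6Chi cells, where 11.9% of all tested genes were higher and 12.7% lower. In N2ΔMy cells 73 were higher and 44 lower, against 9.01% and 8.38% of all tested genes, which is 13.5% of the members against 17.4% in both directions together. Blocking on the replicate number raised the N2ΔMy total to 186 and turned this order, to 21.5% of the members against 20.5% of all genes. The median log2 fold change was 0.21 over the members and −0.01 over all tested genes in wt cells, and 0.28 against −0.01 in N2ΔMy cells. The size of the wt shift depended on the libraries, with a members' median of 0.15 and 0.31 in the 2 series and 0.14 without Ly6Chi IMQ replicate 4. The N2ΔMy shift differed more between the series. The members' median was −0.17 in the first series alone, with 35 higher and 58 lower, and 0.71 in the second, with 289 higher and 44 lower, from 2 libraries a group each. The shift was largest in sense intronic members, of which 91 of 383 were higher and 10 lower in wt Ly6Clo cells, with a median of 0.54 that was 0.35 and 0.72 in the 2 series, while of 278 members with no overlap 31 were higher and 38 lower, with a median of −0.08. Of the 99 antisense members with shared exon bases, 15 were higher and 15 lower. Malat1 moved the same way as the intronic members, from 92432 ± 15767 (SD, n = 4) in wt Ly6Chi IMQ to 203082 ± 26807 in wt Ly6Clo cells, without overlap. Its log2 fold change was 1.14 in wt (adjusted p = 0.000546, limma) and 1.07 in N2ΔMy cells (adjusted p = 0.00483), against 0.36 and 0.61 for Neat1, which did not pass the test. Their part in the intronic shift was not tested.

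In N2ΔMy cells, 34 sense intronic members were higher and 3 lower, with a median of 0.53. Within the first series this was 12 higher and 14 lower with a median of −0.21, and within the second 211 and 2 with a median of 1.36. The higher count was 66 without N2ΔMy Ly6Clo replicate 2 and 21 without replicate 4. Blocking on the replicate number gave 144 higher and 15 lower sense intronic members in wt and 62 and 8 in N2ΔMy cells. With this block, 36.8% of all members against 28.5% of all tested genes were called in wt cells, and 21.5% against 20.5% in N2ΔMy cells. Both shifts were smaller once the summed level of the 2038 intronic clone-named genes that are not members was added to the fit as a covariate, an alternative chosen after the data were seen. With it, 41 sense intronic members were higher and 15 lower in wt cells, with a median of 0.20, and 19 and 7 in N2ΔMy cells, with a median of 0.09. Of all members, 17.7% were then called in wt cells against 21.7% of all tested genes, and 10.0% against 15.2% in N2ΔMy cells. The covariate measures the same class and itself differed between the subsets, with means of 8700.5 in wt Ly6Chi IMQ and 10863.5 in wt Ly6Clo cells. Smaller shifts therefore follow by construction. Markers of other cells differed between the subsets too. The sum of 6 neutrophil markers, of which Ly6g, Mpo, Elane and Camp were under 50 in every library, was 605 to 3293 in wt Ly6Chi IMQ and 4 to 98 in wt Ly6Clo cells. That of 5 macrophage markers was 2293 to 3098 and 3943 to 6108. The paper's sort took cells positive for CD115 and negative for its lineage markers, which include Ly6G. The part of neutrophils and macrophages in the subset differences was not tested.

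Members lower in Ly6Clo cells were led by genes that overlap no other gene. RP23-458B6.6 (I830127L07Rik, chr15:75131377-75135128, minus strand), a transcribed pseudogene whose nearest gene is Ly6c2, which encodes the Ly6C antigen of the sort, had 1225, 1071, 1932 and 2202 in wt Ly6Chi IMQ cells and 27, 13, 84 and 13 in wt Ly6Clo cells. N2ΔMy Ly6Chi IMQ cells had 1344, 1035, 2596 and 2256 and N2ΔMy Ly6Clo cells 43, 65, 95 and 45. Every Ly6Clo library lay far below every Ly6Chi library, with log2 fold changes of −5.88 (SE 0.51, adjusted p = 9.5e-06, limma) and −4.82 (SE 0.32, adjusted p = 2.09e-06).

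Some members met the limit of the choice through 1 subset alone, which favours the direction in which they differ. Of the 155 higher in wt Ly6Clo cells, 24 were under 50 in every Ly6Chi library, and of the 73 lower, 19 were under 50 in every Ly6Clo library. The subset values of such members are given as a description, with no test.

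Among the lower ones of this kind, RP23-283G7.4 (Gm47675, chr13:36864016-36864625), a lincRNA 2553 bases from F13a1, the gene of coagulation factor XIII A, had 69, 34, 42 and 40 in wt Ly6Chi IMQ cells and was listed at 0 in all 4 wt Ly6Clo libraries. In N2ΔMy cells it had 76, 62, 44 and 34 in Ly6Chi and 2, 1, 0 and 5 in Ly6Clo libraries, a log2 fold change of −4.42. F13a1 itself was at 19222 to 24635 in wt Ly6Chi IMQ cells and at 71 to 450 in wt Ly6Clo cells. RP23-475B13.3 (F730016J06Rik, chr2:28095477-28127731), a lincRNA nearest to Fcnb, the gene of the lectin ficolin B, had 59, 36, 62 and 77 against 0, 0, 0 and 4 in wt cells, with a log2 fold change of −5.26. RP23-73N16.7 (chr17:29114145-29133811), beside Rab44 and absent from release M21, had 70, 59, 51 and 37 against 2, 0, 0 and 4, a log2 fold change of −4.77. In each of these genes the 2 subsets did not overlap in either genotype.

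Members higher in Ly6Clo cells were led by single-block transcripts inside introns. RP24-357G2.2, RP23-395G18.1, RP23-218E6.3 and RP23-129J8.3 were all under 50 in every Ly6Chi library. RP24-357G2.2 (Gm42900, chr5:107254338-107256504, minus strand), a TEC in an intron of Tgfbr3, the TGF-β co-receptor betaglycan, had 3, 0, 8 and 0 in wt Ly6Chi IMQ cells and 70, 34, 73 and 59 in wt Ly6Clo cells. Its log2 fold change was 4.56 in wt and 4.09 in N2ΔMy cells, where Ly6Clo libraries had 31, 15, 50 and 57. The host Tgfbr3 moved with it, from 12 to 63 in wt Ly6Chi IMQ to 866 to 1711 in wt Ly6Clo libraries. RP23-395G18.1 (Gm37053, chr1:106604784-106606870, minus strand), in an intron of the survival gene Bcl2, had 23, 10, 15 and 5 in wt Ly6Chi IMQ cells and 215, 105, 202 and 278 in wt Ly6Clo cells. N2ΔMy Ly6Clo cells had 37, 14, 64 and 97, all below the wt Ly6Clo values, with replicate 2 inside the wt Ly6Chi range. The subset log2 fold change was 3.91 for the member and 3.57 for Bcl2 in wt cells.

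RP23-218E6.3 (Gm44891), in an intron of Chst15, a chondroitin sulfate sulfotransferase gene, had 15, 11, 11 and 5 in wt Ly6Chi IMQ cells and 103, 115, 142 and 122 in wt Ly6Clo cells, a log2 fold change of 3.48. RP23-129J8.3 (Gm49553), in an intron of the adaptor gene Grap2, had 18, 12, 12 and 5 against 88, 100, 64 and 77, a log2 fold change of 2.80. Neither member had overlapping subsets in wt cells.

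Cdk14, a cyclin-dependent kinase gene, held 7 sense intronic members. All 7 were higher in wt Ly6Clo cells, but 5 of them, among them the 2 with values here, were under 50 in every Ly6Chi library, so this count is a description. RP23-114F4.2 (Gm43112, chr5:4819506-4822627) had 19, 8, 4 and 1 in wt Ly6Chi IMQ cells and 104, 38, 82 and 92 in wt Ly6Clo cells, a log2 fold change of 3.52. RP23-114F4.3 (Gm43113) had 4, 6, 8 and 14 against 58, 44, 56 and 46. Cdk14 had 414, 521, 749 and 725 against 2337, 2616, 2841 and 3086, a log2 fold change of 2.21 (SE 0.18, adjusted p = 6.55e-06, limma). The Ly6Clo libraries were higher for the host and for both of these members, without overlap.

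Hosts that were not called between the wt subsets also held several members. Maml3, which encodes a coactivator of Notch receptors, also held 7 members, and Cers6, a ceramide synthase gene, held 6. RP23-380F8.2 (C130089K02Rik), in Maml3, had 483, 213, 513 and 246 in wt Ly6Chi IMQ and 452, 342, 786 and 677 in wt Ly6Clo cells, against 252, 235, 103 and 177 in N2ΔMy Ly6Chi IMQ cells. Maml3 had 1105, 895, 776 and 816 in wt Ly6Chi IMQ cells and 1176, 944, 1115 and 1110 in wt Ly6Clo cells, a log2 fold change of 0.28 (SE 0.13, adjusted p = 0.105, limma). It was higher in all 4 pairs of replicate numbers, and its adjusted p was 0.0199 with a replicate block, still below the fold limit. RP23-412L18.1, in Cers6, had 386, 203, 376 and 174 in wt Ly6Chi IMQ and 319, 192, 368 and 279 in wt Ly6Clo cells. These values overlap between the subsets. Cers6 itself had 4203, 3608, 3511 and 3292 against 3681, 3373, 3103 and 3022, lower in all 4 pairs, with a log2 fold change of −0.15 (adjusted p = 0.294, and 0.0663 with a block, limma).

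Among the 373 sense intronic members whose host was itself tested, 101 were called between the wt subsets. They lay in 71 hosts, and for 74 of them the host was called in the same direction, for 0 in the opposite direction and for 27 not at all. Of the 272 that were not called, 22 had a called host. The 373 members lay in 274 hosts, of which 50 were higher and 15 lower, or 23.7%, against 24.6% of all tested genes. In N2ΔMy cells the host was called in the same direction for 29 of 37. The median log2 fold change was 0.55 over the intronic members and 0.20 over their hosts in wt cells. Of 77 antisense members with shared exon bases and a tested host, 24 were called between the wt subsets, and the host was called in the same direction for 6, in the opposite direction for 1 and not called for 17. These 77 members lay in 75 hosts, of which 30.7% were called. Members of 1 host are not independent of each other.

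**Figure D3:**
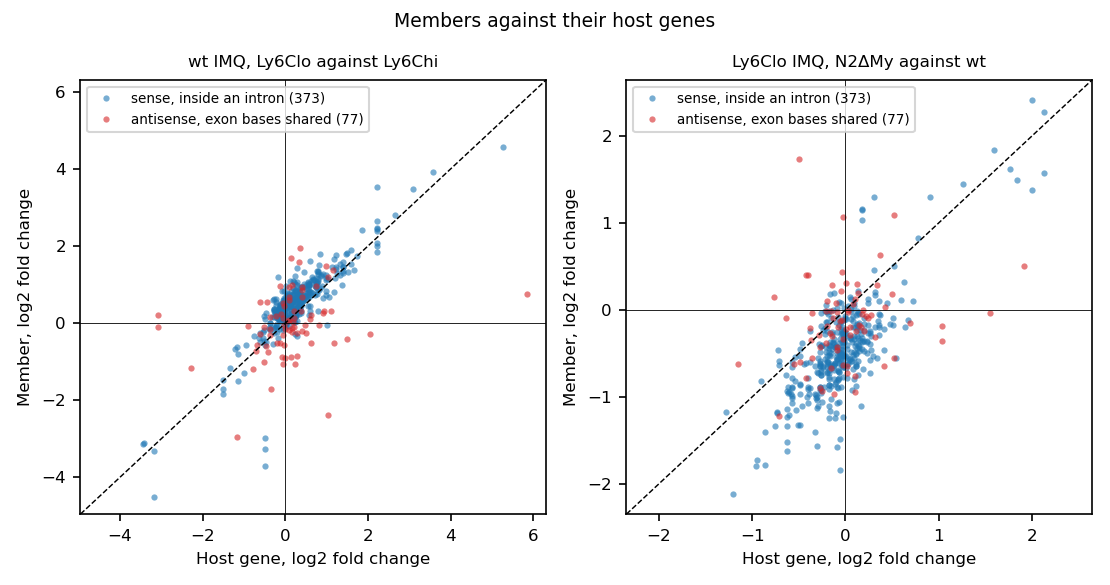
Log2 fold change of each member (vertical axis) against that of its host gene (horizontal axis), for wt Ly6Clo against wt Ly6Chi cells after IMQ and for N2ΔMy against wt Ly6Clo cells, with 373 sense intronic members in blue, 77 antisense members with shared exon bases in red and a dashed line of equality. In the genotype panel the blue points lie mostly below 0 while their hosts centre near 0 (medians −0.50 and −0.07).

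The difference between a member and its host was then tested library by library, as the log2 ratio of the pair, in 506 pairs. Between the wt subsets the member rose more than its host in 10 pairs and less in 14, where 13.4% of all 1759 tested pairs of overlapping genes differed. Blocking on the replicate number called 48 of the 506 pairs. Within the 2 series alone 15 and 10 pairs were called. In N2ΔMy cells the counts were 4 and 8, where 6.08% of all pairs differed. Their total of 12 became 22 with the library series as a covariate and 208 in the second series alone, and was 7 without Ly6Chi IMQ replicate 1, 3 or 4 and 6 without Ly6Clo replicate 1.

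RP23-128P10.1 (5830432E09Rik, chr7:135635931-135652314, minus strand) runs antisense to Ptpre, which encodes a receptor-type tyrosine phosphatase, and shares 0.129% of its windows with it. It had 329, 253, 227 and 204 in wt Ly6Chi IMQ cells and 82, 41, 28 and 50 in wt Ly6Clo cells, while Ptpre had 4963, 4497, 5246 and 4969 and then 10034, 8886, 10530 and 10844. The antisense member fell where its host rose, and neither overlapped between the subsets. The log2 fold changes were −2.39 and 1.03, and the ratio of the pair changed by −3.42 (SE 0.31, adjusted p = 6.3e-05 over all pairs, limma) in wt and −1.73 (SE 0.21, adjusted p = 0.00102, limma) in N2ΔMy cells.

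RP24-252B21.2 (Gm16638, chr7:83597048-83631880), antisense to the transmembrane channel-like gene Tmc3, had 105, 71, 38 and 42 in wt Ly6Chi IMQ and 128, 180, 64 and 66 in wt Ly6Clo cells. Tmc3 had 0, 1, 0 and 2 and then 163, 90, 61 and 69, and the ratio changed by −5.09 (SE 0.63, adjusted p = 0.000608, limma). The member was thus present in the subset where its host was at or near 0. It shares 39.8% of its windows with Tmc3. RP23-3F1.4 (Gm16536, chr9:45856769-45858357), antisense to the β-secretase gene Bace1, had 120, 111, 171 and 117 against 125, 122, 189 and 171. Bace1 fell from 100, 99, 81 and 58 to 7, 14, 19 and 3, so that the ratio changed by 3.30. Bace1 was under 50 in every Ly6Clo library, so this ratio is given without a test too. Both antisense members overlapped between the subsets and both hosts did not.

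RP23-252O5.3 (Gm6377, chrX:109196756-109200439), a coding gene on the strand of Sh3bgrl that shares 5.55% of its windows with it, had 46, 104, 66 and 133 in wt Ly6Chi IMQ and 606, 677, 515 and 864 in wt Ly6Clo cells. In N2ΔMy cells the values were 40, 87, 59 and 97 in Ly6Chi and 359, 518, 479 and 424 in Ly6Clo libraries. The member rose without overlap in both genotypes, by 3.00 (SE 0.30, adjusted p = 2.53e-05, limma) and 2.70 (SE 0.26, adjusted p = 2.96e-05, limma), while Sh3bgrl had log2 fold changes of 0.34 and 0.42. RP23-442J18.3 (Gm44775), antisense to the peroxisomal gene Pex11g, had a ratio change of −2.34 in wt cells, but 95.8% of its windows are shared with Pex11g and its own values of 71 to 125 and 56 to 89 overlap. Pex11g also reached 50 in Ly6Clo libraries alone, so no test is given.

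**Figure D4:**
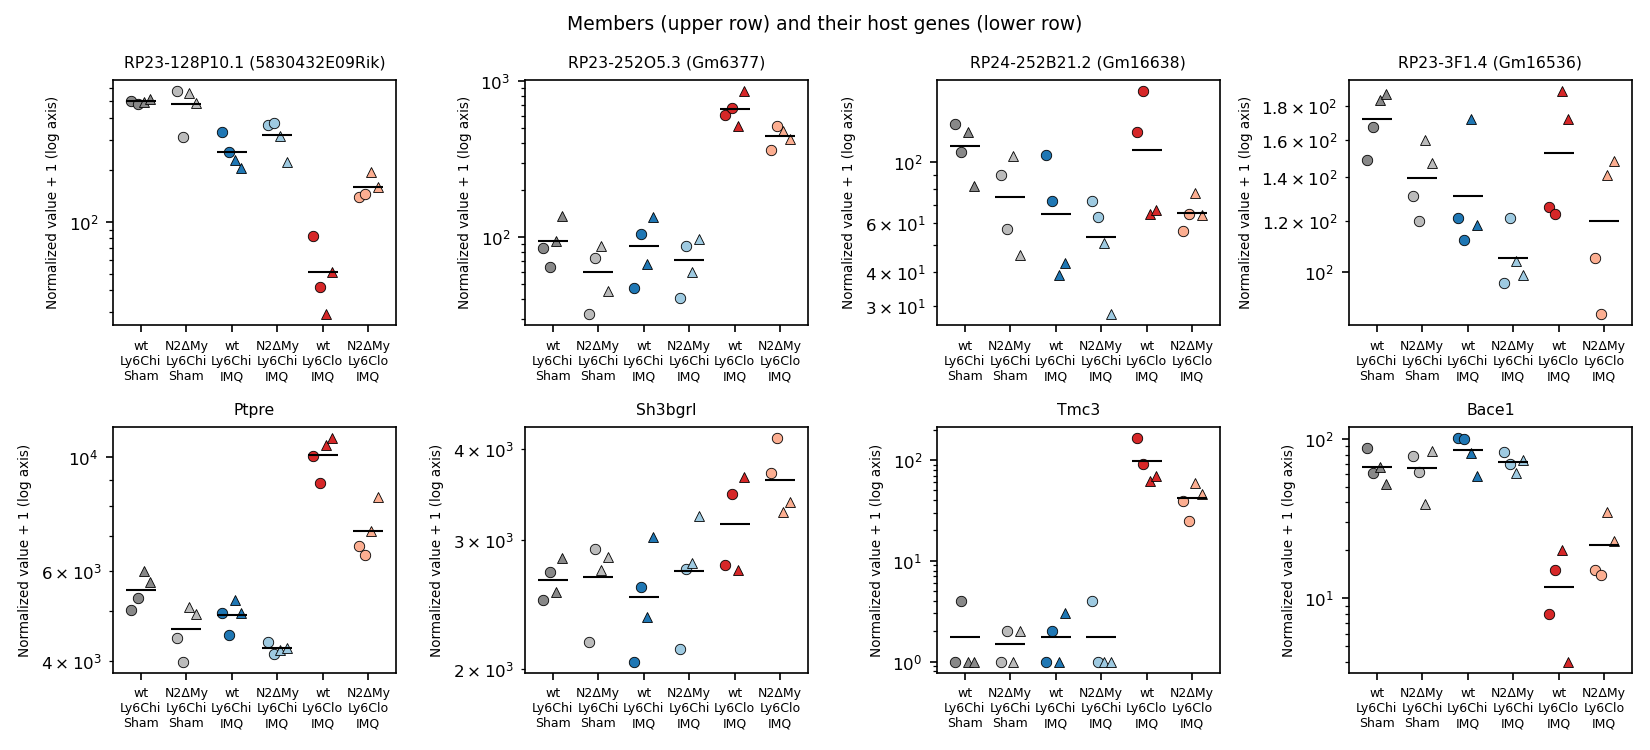
Normalised value plus 1 (vertical axes, log scale) of 4 members (upper panels) and of their overlapping genes (lower panels) in the 6 groups, with circles for replicates 1 and 2, triangles for replicates 3 and 4 and a line for the arithmetic mean of the group. RP23-128P10.1 is lowest in wt Ly6Clo cells (28 to 82) where Ptpre is highest (8886 to 10844), and RP23-252O5.3 rises to 515 to 864 in wt Ly6Clo cells while Sh3bgrl stays between 2047 and 4133 in all groups.

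After IMQ, more members fell than rose, but in the unblocked test each count was a smaller share of the members than of all tested genes. In wt Ly6Chi cells 17 members were higher and 42 lower than after Sham, where 4.43% of all tested genes were higher and 5.07% lower, and in N2ΔMy Ly6Chi cells 15 were higher and 32 lower, against 4.15% and 4.55%. In both directions together, 6.81% of the members were called in wt and 5.43% in N2ΔMy cells, against 9.49% and 8.70% of all tested genes. Blocking on the replicate number called 103 members in wt cells, where the shares were equal at 11.9% of the members and of all genes, and took the lower sense intronic members there from 9 to 27. Median log2 fold changes were −0.12 over the members against 0.01 over all tested genes in wt cells and −0.18 against 0.01 in N2ΔMy cells, and over the sense intronic members −0.18 and −0.29. These medians moved with the libraries used. In N2ΔMy cells the sense intronic median was 0.16 in the first series and −0.77 in the second, and −0.07 without IMQ replicate 3, and in wt cells it was −0.01 without IMQ replicate 4. With the intronic covariate, which measures the same class and so shrinks this median by construction, it was −0.02 in both genotypes. Sums of markers listed for other cells moved alongside. That of 6 neutrophil markers was 7 to 15 after Sham and 605 to 3293 after IMQ in wt Ly6Chi cells, from S100a8 and Ltf, while Ly6g, Mpo, Elane and Camp stayed under 50 in every library. In wt Ly6Chi cells the sum of 4 dendritic cell markers was 524 to 805 after Sham and 260 to 460 after IMQ, and that of 5 macrophage markers 3740 to 4525 and 2293 to 3098, both lower without overlap. In N2ΔMy Ly6Chi cells the neutrophil sum was 0 to 18 and 452 to 3494, and the dendritic cell sum 564 to 984 and 289 to 399. The macrophage sums there, 3426 to 4993 and 3351 to 4275, overlapped. The part of these cells in the results was not tested.

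RP23-110C17.2 (AI506816, chr5:23698296-23712667, minus strand), a processed transcript of 6 exon blocks, rose most after IMQ among the members called in wt cells without overlap. It had 37, 35, 51 and 23 after Sham and 355, 349, 113 and 286 after IMQ in wt Ly6Chi cells, and 36, 38, 17 and 14 and then 244, 302, 190 and 254 in N2ΔMy Ly6Chi cells. Wt Ly6Clo cells had 5, 8, 49 and 6 and N2ΔMy Ly6Clo cells 53, 72, 72 and 24. Both IMQ groups of Ly6Chi cells lay above all other libraries, with log2 fold changes of 2.81 (SE 0.38, adjusted p = 0.000746, limma) and 3.30 (SE 0.34, adjusted p = 0.000256, limma).

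Smaller rises were seen in RP23-297M4.7 (2510016D11Rik), a TEC in an intron of the endolysosomal channel gene Tpcn1. It had 52, 30, 89 and 81 after Sham and 227, 264, 186 and 175 after IMQ in wt cells, without overlap, a log2 fold change of 1.84 (SE 0.32, adjusted p = 0.00336, limma). RP24-456G16.4 (Tmem273), which encodes a membrane protein, had 23, 17, 15 and 4 and then 73, 54, 35 and 48, a log2 fold change of 1.92, given without a test because it reached 50 in Ly6Chi IMQ libraries alone. RP23-183N8.3 (5031425F14Rik), a lincRNA, had 6, 5, 38 and 15 and then 42, 46, 66 and 45, a log2 fold change of 1.97 (SE 0.55, adjusted p = 0.0349, limma), and was called in 1 of 8 fits that left out a library. In N2ΔMy cells alone of the 2 genotypes, RP23-336O18.3 (Gm43181), in an intron of the iron-sensing gene Fbxl5, was called, with 0, 5, 2 and 4 after Sham and 14, 39, 11 and 53 after IMQ and a log2 fold change of 3.02 (SE 0.71, adjusted p = 0.0194, limma). It had 5, 1, 1 and 0 and then 7, 4, 17 and 30 in wt cells, and no member passed the test of a different IMQ effect between genotypes.

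The members that fell most after IMQ in wt cells, among those without overlap, lay in 1 locus on chromosome 19. RP24-84E18.1 (Gm6545, chr19:12528755-12530540), a processed pseudogene inside AC129014.2, had 1750, 1667, 1200 and 1302 after Sham and 76, 188, 228 and 80 after IMQ in wt Ly6Chi cells, and 1839, 1576, 1003 and 1522 and then 97, 149, 305 and 118 in N2ΔMy Ly6Chi cells. Wt Ly6Clo cells had 9, 1, 16 and 2. The 3 levels did not overlap, and the IMQ log2 fold changes were −3.51 (SE 0.33, adjusted p = 0.000136, limma) and −3.25 (SE 0.32, adjusted p = 0.000219, limma). RP24-84E18.2 (Gm47242, chr19:12539588-12540823), a lincRNA in the same host, had 284, 256, 506 and 478 and then 12, 17, 117 and 25 in wt cells, with a log2 fold change of −3.65 (SE 0.58, adjusted p = 0.00203, limma).

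RP23-466C10.2 (Gm45540, chr8:56311304-56314909), a TEC in an intron of Hpgd, the gene of the prostaglandin-degrading dehydrogenase, had 172, 204, 152 and 145 after Sham and 20, 28, 49 and 9 after IMQ in wt cells, and 148, 172, 131 and 156 and then 10, 5, 9 and 8 in N2ΔMy cells. Sham and IMQ were far apart in both genotypes, with log2 fold changes of −2.84 (SE 0.42, adjusted p = 0.00129, limma) and −4.11 (SE 0.28, adjusted p = 3.69e-05, limma). Hpgd fell with it, by −3.06 and −2.96 on the log2 scale. RP23-269H11.2 (Gm17229), in an intron of the cyclic AMP phosphodiesterase gene Pde7b, had 109, 98, 120 and 160 and then 16, 18, 53 and 17 in wt cells, with a log2 fold change of −2.35 (SE 0.38, adjusted p = 0.00218, limma).

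RP23-85A8.1 (Ifi206, chr1:173468485-173491041, minus strand) had 732, 372, 563 and 655 after Sham and 66, 14, 320 and 88 after IMQ in wt Ly6Chi cells, and 538, 802, 372 and 900 and then 70, 64, 435 and 184 in N2ΔMy Ly6Chi cells. Replicate 3 was the highest IMQ library of both genotypes, and in N2ΔMy cells it reached into the Sham range. The log2 fold changes were −2.95 (SE 0.71, adjusted p = 0.0179, limma) and −2.15 (SE 0.56, adjusted p = 0.0289, limma), of which the latter was kept in 3 of 8 fits that left out a library. The gene shares 17.6% of its windows with other genes, of which Ifi208 holds the most at 7.88%.

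Promoter sequences are shown for the member that rose most and for the interferon-activated one that fell. RefSeq promoters, from 250 bases before to 50 after the annotated start in build GRCm38.p6, matched 249 members with 309 promoters. Of 4 motifs searched on both strands, the core of the interferon-stimulated response element, which is GAAA, any 2 bases and GAAA again, was in 4.85% of the members' promoters and in 3.44% of all 32851, GAGGAAGT of PU.1 in 4.53% and 3.20%, TTGCNNCAA of C/EBP in 2.27% and 2.08%, and AAAGGTCA of NR4A in 2.27% and 1.51%. Each motif was searched on its own, matches of different motifs could overlap, and a match is a description of these letters alone. In the Ifi206 promoter at chr1:173491269-173491568 (minus strand), capitals mark a match to this element that begins 40 bases before the RefSeq start, which lies 277 bases upstream of the start in the deposited table. The AI506816 promoter at chr5:23712618-23712917 (minus strand) holds none of the 4 motifs and has 66.3% G and C. Both are written 5′ to 3′ on the strand of the gene.
Ifi206: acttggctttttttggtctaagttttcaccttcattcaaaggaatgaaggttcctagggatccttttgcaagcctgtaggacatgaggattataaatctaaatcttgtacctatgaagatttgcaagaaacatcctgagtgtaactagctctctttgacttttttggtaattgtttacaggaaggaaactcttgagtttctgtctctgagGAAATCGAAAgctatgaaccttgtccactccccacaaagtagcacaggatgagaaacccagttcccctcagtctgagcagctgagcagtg
AI506816: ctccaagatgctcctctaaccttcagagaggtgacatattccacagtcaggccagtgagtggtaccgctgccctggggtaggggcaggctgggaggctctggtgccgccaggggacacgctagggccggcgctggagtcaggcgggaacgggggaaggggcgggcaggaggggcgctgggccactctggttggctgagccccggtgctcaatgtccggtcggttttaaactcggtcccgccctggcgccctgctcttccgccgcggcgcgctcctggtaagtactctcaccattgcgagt

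Loss of Notch2 was compared in 3 settings. In Ly6Clo cells after IMQ, 5 members were higher and 24 lower in N2ΔMy than in wt mice, where 3.12% of all tested genes were higher and 1.67% lower. Of the 24, 16 were sense intronic. In both directions together 3.35% of the members and 4.78% of all tested genes were called. A replicate block turned this order, with 125 members or 14.4% against 8.36% of all genes. Leaving out a library gave between 7 and 39 members. The count was 1 (RP23-50E10.4, in Ank2) with the intronic covariate, which also took the calls over all genes from 537 to 208. Blocking raised the lower sense intronic members from 16 to 76. In Ly6Chi cells 0 members were called after IMQ and 0 after Sham, where 0.0267% and 0.0178% of all tested genes were, with 77 and 83 members at an unadjusted p under 0.05 (limma), which is 8.89% and 9.58% of them against 6.05% and 5.21% of all genes. A block gave 5 members after IMQ, or 0.577% against 0.481% of all genes, and 0 after Sham.

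The median of the intronic class was lower in N2ΔMy cells in all 3 settings, although without a block members were called in Ly6Clo cells alone. Median log2 fold changes of the 383 sense intronic members were −0.49 in Ly6Clo cells, −0.51 in Ly6Chi IMQ cells and −0.42 in Ly6Chi Sham cells, while all tested genes had medians of −0.0035, 0.01 and 0.01. Their tested hosts had medians of −0.07, −0.02 and −0.04. With the intronic covariate the sense intronic medians were −0.01, −0.05 and −0.09. This covariate measures the same class and itself differed between the genotypes, with Ly6Clo means of 10863.5 in wt and 8263.75 in N2ΔMy cells. Medians nearer 0 therefore follow by construction and say nothing about a cause. In Ly6Chi IMQ cells the median was −0.17 in the first series and −0.89 in the second, and −0.30 without N2ΔMy replicate 3. In Ly6Clo cells it was −0.68 and −0.26 in the 2 series. In Ly6Clo cells, 339 of the 383 were below 0 and 44 above, and 95, or 24.8%, had an unadjusted p under 0.05, against 19.5% of all tested genes. The wt and N2ΔMy sums of these members overlapped after IMQ in both subsets but not after Sham, where they were 47431, 46520, 47963 and 43348 in wt and 43253, 28020, 42996 and 28530 in N2ΔMy Ly6Chi cells, lower in all 4 pairs of replicate numbers. By replicate number, the Ly6Clo sums were 60664, 47393, 71197 and 57475 in wt against 36868, 26246, 45748 and 55597 in N2ΔMy cells, lower in all 4 pairs. The Ly6Chi IMQ sums were 51087, 33030, 48116 and 27545 against 37877, 35501, 17931 and 21976, lower in 3 of 4 pairs. The nuclear RNAs also had lower means. In Ly6Clo, Ly6Chi IMQ and Ly6Chi Sham cells Malat1 differed by −0.42, −0.35 and −0.31 and Neat1 by −0.28, −0.53 and −0.39 on the log2 scale. None of these passed the unblocked test (adjusted p from 0.256 to 0.925, limma). By replicate number, Malat1 was lower in all 4 pairs in each of the 3 settings. After Sham it had 121189 to 135112 in wt and 91388 to 118880 in N2ΔMy cells, without overlap. Neat1 was lower in all 4 pairs after Sham and in 3 of 4 in each of the others. Their part in the intronic medians was not tested.

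Of the lower members, those in Camk2d, which encodes a calcium/calmodulin-dependent kinase, were found in 3 places of 1 host. RP23-293K21.2 (Gm43010, chr3:126625880-126628757) had 273, 267, 489 and 304 in wt and 79, 78, 115 and 164 in N2ΔMy Ly6Clo cells, a log2 fold change of −1.63 (SE 0.28, adjusted p = 0.00636, limma). RP23-293K21.7 (Gm42515, chr3:126737497-126741079) had 278, 232, 227 and 275 against 90, 60, 129 and 140, a log2 fold change of −1.33 (SE 0.26, adjusted p = 0.0123, limma). Neither overlapped between genotypes, and Camk2d was itself lower, with 5030, 4193, 4036 and 4662 against 3000, 3342, 2341 and 2983 and a log2 fold change of −0.63 (SE 0.12, adjusted p = 0.0123, limma). The third, RP23-293K21.1 (Gm43011), had a log2 fold change of −1.23.

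RP23-370F7.3 (Gm12568, chr11:46243571-46244194), a processed pseudogene in an intron of Cyfip2, which encodes a subunit of the actin-regulating WAVE complex, had 190, 156, 206 and 150 in wt and 41, 37, 72 and 55 in N2ΔMy Ly6Clo cells. Its log2 fold change was −1.79 (SE 0.25, adjusted p = 0.00206, limma), against −0.95 for Cyfip2, and it shares 34.4% of its windows with other genes, 21.1% with Hmgb1-ps3. RP23-395G18.1, in Bcl2, with the values given above, had −2.12 against −1.20 for Bcl2. Without the wt Ly6Clo libraries it would not have met the limit of the choice, so its value is a description with no test. With the intronic covariate, under which calls were fewer over all genes too, the log2 fold changes were −1.36 for RP23-370F7.3, −1.07 for RP23-293K21.2, −0.82 for RP23-293K21.7 and −0.93 for RP23-395G18.1. None of the 4 was then called (adjusted p from 0.0513 to 0.498, limma).

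Higher in N2ΔMy Ly6Clo cells were RP23-480P21.3, RP24-80F7.5, RP23-128P10.1, RP23-320E6.5 and, by 0.61, RP23-311C19.1 (2310022A10Rik). RP24-80F7.5 (AI839979, chr5:31569595-31571397, minus strand), a lincRNA that overlaps no gene, had 38, 36, 35 and 8 in wt and 130, 150, 66 and 79 in N2ΔMy Ly6Clo cells, against 534, 453, 541 and 557 in wt and 590, 520, 655 and 633 in N2ΔMy Ly6Chi IMQ cells. The N2ΔMy Ly6Clo libraries thus lay above all wt Ly6Clo libraries and below every Ly6Chi library. The genotype log2 fold change was 1.96 (SE 0.49, adjusted p = 0.0418, limma), called in 1 of 8 fits that left out a library, and the subset log2 fold changes were −4.32 in wt and −2.56 in N2ΔMy cells.

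RP23-128P10.1, the Ptpre antisense transcript, had 139, 144, 193 and 159 in N2ΔMy Ly6Clo cells against 82, 41, 28 and 50 in wt, a log2 fold change of 1.73 (SE 0.31, adjusted p = 0.00765, limma). Ptpre had 6698, 6435, 7166 and 8344 against 10034, 8886, 10530 and 10844, and the ratio of the pair changed by 2.23 (SE 0.30, adjusted p = 0.00583, limma), the only one of 506 member pairs called in this comparison, where 0.569% of all pairs differed. RP23-320E6.5 (E230016K23Rik, chr11:83582056-83623693), which runs antisense to the chemokine gene Ccl6 without shared exon bases, had 77, 48, 76 and 58 against 15, 23, 44 and 11, a log2 fold change of 1.60 (SE 0.42, adjusted p = 0.0491, limma). RP23-480P21.3 (Gm42603), within Anxa3 and sharing exon bases with that annexin gene, had 59, 31, 85 and 67 against 9, 4, 24 and 16, a log2 fold change of 2.26. Without the N2ΔMy Ly6Clo libraries it would not have met the limit of the choice, so this is a description with no test. Anxa3 had 942, 1032, 659 and 864 against 209, 155, 60 and 95. The genotypes did not overlap in any of these members. Called lower in wt Ly6Clo than in wt Ly6Chi cells were RP24-80F7.5, RP23-128P10.1 and RP23-320E6.5.

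Markers of other cells differed in the same comparison. The sum of the 6 Ly6Chi markers was 2621 to 4644 in wt and 9576 to 15037 in N2ΔMy Ly6Clo libraries, and that of 5 macrophage markers 3943 to 6108 and 7319 to 11558. Of those 6, Ly6c2 had 19, 12, 92 and 38 in wt and 51, 46, 382 and 58 in N2ΔMy Ly6Clo libraries. It had 2370 to 9161 in N2ΔMy Ly6Chi IMQ libraries. Fcgr1, also among the 6, is named by the paper with macrophage genes. The sum of 4 dendritic cell markers was 46 to 417 and 158 to 1054, with Xcr1 under 50 in every library. The part of other cells in the genotype differences was not tested. With the intronic covariate, under which 208 in place of 537 genes were called, the log2 fold changes were 2.99 for RP23-480P21.3, 1.92 for RP24-80F7.5, 1.85 for RP23-128P10.1 and 1.99 for RP23-320E6.5, and none of them was called (adjusted p from 0.0594 to 0.261, limma).

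The promoters of the 3 members with a RefSeq start within 5 bases of the table's start are shown because these transcripts were higher in N2ΔMy Ly6Clo cells. They lie at chr5:31571348-31571647 (AI839979, minus strand), chr7:135652265-135652564 (5830432E09Rik, minus strand) and chr11:83581811-83582110 (E230016K23Rik, plus strand), and none holds any of the 4 motifs.
AI839979: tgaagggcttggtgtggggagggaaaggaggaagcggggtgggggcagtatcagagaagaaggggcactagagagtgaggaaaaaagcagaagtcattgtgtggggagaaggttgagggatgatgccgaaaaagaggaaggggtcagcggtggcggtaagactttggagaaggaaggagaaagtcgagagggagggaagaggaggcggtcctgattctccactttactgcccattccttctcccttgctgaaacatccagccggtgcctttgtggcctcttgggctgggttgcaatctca
5830432E09Rik: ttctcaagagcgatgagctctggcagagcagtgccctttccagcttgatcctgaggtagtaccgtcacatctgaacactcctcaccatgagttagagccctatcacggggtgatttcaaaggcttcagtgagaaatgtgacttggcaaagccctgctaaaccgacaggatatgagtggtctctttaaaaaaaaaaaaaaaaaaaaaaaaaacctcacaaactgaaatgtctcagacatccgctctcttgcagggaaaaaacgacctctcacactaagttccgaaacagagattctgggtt
E230016K23Rik: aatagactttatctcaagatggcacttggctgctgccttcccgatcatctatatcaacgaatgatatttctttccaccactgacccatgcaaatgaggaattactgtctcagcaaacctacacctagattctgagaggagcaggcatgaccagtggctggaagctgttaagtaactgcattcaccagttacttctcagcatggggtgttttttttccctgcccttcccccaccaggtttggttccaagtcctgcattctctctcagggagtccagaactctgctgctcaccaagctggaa

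**Figure D5:**
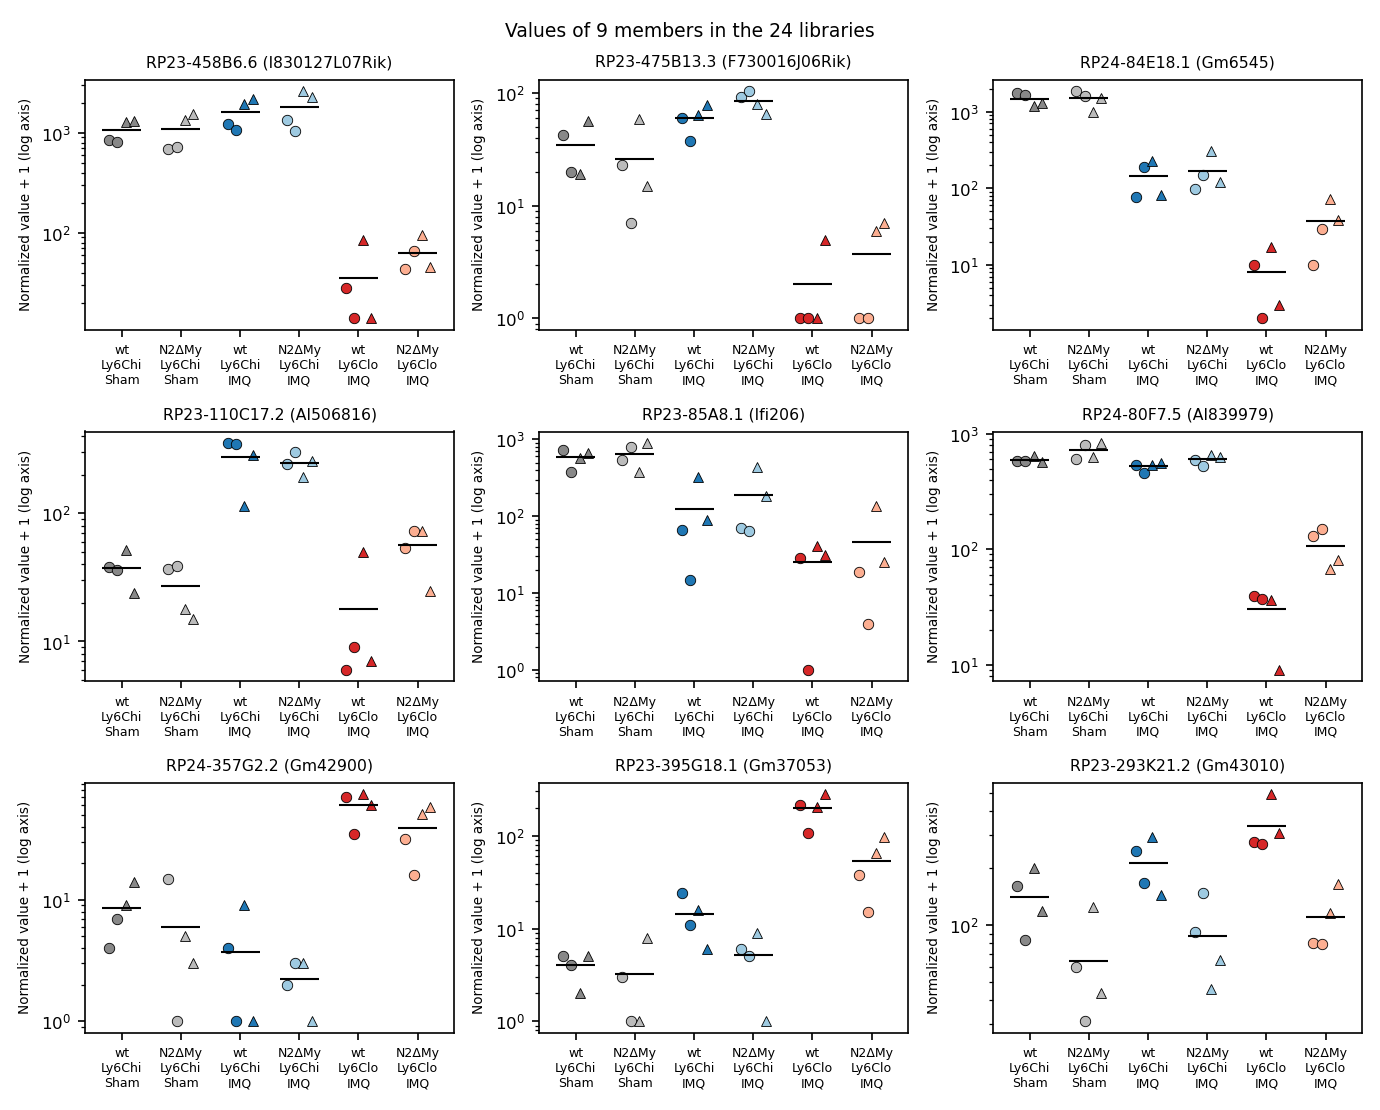
Normalised value plus 1 (vertical axes, log scale) of 9 members in the 6 groups, with circles for replicates 1 and 2, triangles for replicates 3 and 4 and a line for the arithmetic mean of the group. RP23-458B6.6 falls from 1071 to 2202 in wt Ly6Chi IMQ cells to 13 to 84 in wt Ly6Clo cells, and RP24-80F7.5 in N2ΔMy Ly6Clo cells (66 to 150) lies between wt Ly6Clo and Ly6Chi values.

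Whether the Notch2 effect differed between subsets was tested as an interaction over the 16 IMQ libraries. It called 0 members with limma, where 1.03% of all tested genes were called, and 33 members had an unadjusted p under 0.05, which is 3.81% against 8.33% of all genes. A replicate block called RP23-480P21.3 (2.56), RP24-80F7.5 (1.76), RP23-128P10.1 (1.41) and RP23-137L8.2 (−0.97, log2 difference of the fold changes). That is 0.462% of the members against 2.41% of all genes, and RP23-480P21.3 met the limit of the choice only with the N2ΔMy Ly6Clo libraries. The interaction of genotype with IMQ in Ly6Chi cells called 0 members, as it did 0% of all tested genes, while 13 members, and 177 of all 11230 genes, had an unadjusted p under 0.05.

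Among member pairs in the IMQ comparison, 2 were called in wt cells and 1 in N2ΔMy cells, where 2.50% and 2.27% of all pairs were, and 10 and 3 were called with a block. RP23-128P10.1 had 502, 482, 494 and 518 after Sham and fell to 329, 253, 227 and 204 after IMQ in wt Ly6Chi cells, a log2 fold change of −0.998 (SE 0.15, adjusted p = 0.00126, limma), while Ptpre had −0.16. RP23-406B13.10 (Gm17354), antisense to Cc2d1b, had 272, 255, 363 and 306 and then 214, 172, 201 and 149, a log2 fold change of −0.70 (SE 0.17, adjusted p = 0.0166, limma), against Cc2d1b values of 576 to 724 and 807 to 878. In N2ΔMy cells the called pair was RP23-320E6.5 with Ccl6. The member had 268, 259, 253 and 309 after Sham and 126, 94, 133 and 124 after IMQ, a log2 fold change of −1.19 (SE 0.16, adjusted p = 0.000956, limma), and the ratio changed by −0.90. Sham and IMQ libraries of these 3 members did not overlap.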

How the data were processed

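Ly6Chi and Ly6Clo monocytes were profiled by rRNA-depleted stranded total RNA-seq with reads of 75 bases. Per the paper's methods and the labels, reads were trimmed with Trim Galore 0.4.4, aligned to GRCm38.p6 with STAR 2.5.3a and annotated with GENCODE M17. The counting program and its strand setting are not given in the sources used here. The authors deposited 1 table of counts per gene, normalised with DESeq2 and rounded to whole numbers, treated here as a score because they are no longer raw counts. Read depth is therefore unknown, and the library sums, 13273508 to 14651770, are not depths. The table also holds fold changes and p-values of the authors' own comparisons, which were not used.

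Members and gene lists were chosen with earlier results of these data known. Positions came from the table's coordinates and classes from GENCODE M21. The 11230 genes that reached 50 in any library were tested with limma 3.58.1 in R 4.3.3, with an intensity trend, on log2(value + 1), over the 8 libraries of each comparison, with Benjamini-Hochberg adjustment over all of them. An interaction was fitted over 4 groups and the F-test over 6. Pairs were tested on the difference of the member's and the host's log2 values. Log values of libraries with the same replicate number deviated together from their group means, with a mean correlation of 0.35 to 0.52 per pair of groups and a lowest single value of 0.16, against −0.17 to −0.12 on average for other numbers. The number therefore pairs libraries, also through the 2 series of library names, and fits with it as a block are given where they change a total of called members, or of called sense intronic members, by over 1.5 times. p-values measure the spread between these libraries. On simulated data with 200 genes changed by a log2 effect of 2 among 10620, the 2-group test recovered 191 and called 7 others, and with an effect of 1 it recovered 144.

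The text names the 10 members with the highest mean, up to 4 called members per direction and comparison with the largest change and no overlap, up to 3 called pairs per comparison, members at the limit of the choice, and the 3 hosts with most members. RP23-293K21.1, RP23-311C19.1, RP23-50E10.4, RP23-137L8.2, Malat1 and Neat1 were named after their values were seen. Promoters are from RefSeq.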

Additional observations from a re-analysis of the deposited data

Results flagged for a closer look

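A library stood apart from the other 3 of its group, by Dixon's test at the 95% level, in 26 of 413 groups tested (6.3%), and chance gives about 1 in 20. In the sum over members with no overlap, the wt Ly6Chi IMQ group had a library at 86437, and in the ribosomal RNA pair the same group had one at 932101. RP23-448H3.2 had 18180 in a wt Ly6Chi Sham library and 13582 in a wt Ly6Clo library, both of replicate 2.

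In wt Ly6Chi Sham cells, the libraries apart were RP23-283G7.4 at 51, RP23-73N16.7 at 149, RP24-80F7.5 at 644 and RP23-175G2.3 at 63. In N2ΔMy Ly6Chi Sham cells, they were RP23-185A18.9 at 3905, RP23-406B13.10 at 159 and RP23-412L18.4 at 224. In wt Ly6Chi IMQ cells, RP23-183N8.3 had 66, RP24-84E18.2 had 117, RP23-269H11.2 had 53, RP23-3F1.4 had 171, RP23-396K2.1 had 65 and RP23-114F4.4 had 11, of which 5 were replicate 3. In N2ΔMy Ly6Chi IMQ cells, RP23-23B10.4 had 59, RP23-370F7.3 had 6 and RP23-346I1.2 had 9. In wt Ly6Clo cells, RP23-110C17.2 had 49, RP23-475B13.3 had 4, RP24-80F7.5 had 8 and RP23-293K21.2 had 489, and in N2ΔMy Ly6Clo cells RP23-85A8.1 had 133 and RP23-407F12.1 had 164.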

How the results depend on the processing

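Counts of members called (limma, adjusted p at most 0.05) kept their side of the comparison under TMM scaling, the stricter filter on low values and, but for the interaction, a pseudocount of 10. For IMQ against Sham, wt cells had 59 members in the main test, 35 with no filter on low values, 103 with the replicate block, 91 with the library series as a covariate and 26 in the second series alone. N2ΔMy cells had 47, then 19 with no filter and 80 with the covariate. Between subsets, wt cells had 228, then 127 with no filter and 145 in the second series, and N2ΔMy cells had 117, then 52 with no filter, 186 with the block, 205 with the covariate and 333 in the second series. For genotype in Ly6Clo cells there were 29, then 1 with no filter, 19 without the trend, 125 with the block, 88 with the covariate, 1 with the intronic level as a covariate and 1 in the second series. In Ly6Chi IMQ cells there were 0, then 5 with the block and 1 with the covariate. The interaction of genotype and subset called 0, then 1 with a pseudocount of 10, 1 without the trend, 4 with the block, 3 with the covariate, 1 with the intronic level and 2 in the first series. With no filter 28578 genes were tested in place of 11230. For the other moves the cause was not tested.

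Pairs of member and host called in the IMQ comparison of wt cells were 2, then 10 with the block, 8 with the covariate and 0 in either series alone. In N2ΔMy cells they were 1, then 3 with the block, 2 with the covariate, 3 with the intronic level, 0 in the first and 2 in the second series. Between the wt subsets they were 24, then 48 with the block, 15 in the first and 10 in the second series, and between the N2ΔMy subsets 12, then 22 with the covariate and 208 in the second series. For genotype in Ly6Clo cells they were 1, then 4 with the covariate, 0 with the intronic level and 0 in the first series. Fits within 1 series rest on 2 libraries a group.

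Leaving out 1 library gave 44 to 66 and 31 to 50 members for IMQ, 179 to 236 and 87 to 148 between subsets, 7 to 39 and 0 to 0 for genotype in Ly6Clo and Ly6Chi cells, 0 to 4 and 0 for the interactions, and 219 to 264 over the 6 groups. The genotype count in Ly6Clo cells was 7, 12, 19 and 18 without wt replicates 1 to 4 and 11, 8 and 12 without N2ΔMy replicates 1 to 3. The lowest N2ΔMy IMQ count, 31, was without Ly6Chi IMQ replicate 4. Pairs ranged over 0 to 3, 0 to 1, 18 to 23, 6 to 9 and 1 to 1 in the 5 comparisons with calls. Of 720 alternatives of 40 named fold changes, 0 reversed and 100 fell below the threshold: 16 with no filter, 7 without the trend, 10 with the intronic level, 5 and 14 in the first and second series, and 48 of 320 without a library. The block changed no call of these 40. Read depth is not known from normalised values, so counting error could not be given for the many members near 50.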
